A study of Mus musculus with 16 samples.

Results

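The 10 genes described here encode 7 carbohydrate sulfotransferases (Chst1, Chst2, Chst7, Chst11, Chst12, Chst14 and Chst15) and 3 β-1,3-N-acetylglucosaminyltransferases (B3gnt2, B3gnt5 and B3gnt8). They were taken by symbol from the 35275 genes of a deposited table of read counts from mouse bone marrow macrophages. Chst1 and B3gnt5 were chosen by their measured expression, for a steep change of their counts with TGF-β1, so their TGF-β1 values are given as a description without a test. The other 8 genes were listed as relatives of these enzymes, with earlier results of these data known. Macrophages were grown from the tibial marrow of C57BL/6 mice, which had received tamoxifen (20 mg/kg on 5 days) at 1 month of age and were killed 2 weeks later. KO macrophages carried Smad7 fl/fl alleles and CAGGCre-ER, an inducible Cre recombinase driven by a promoter active throughout the body, so that deletion was not limited to myeloid cells. Their reference was Smad7 fl/fl littermates, which lacked the Cre but received the same tamoxifen. Cultures were grown with CSF-1, starved of serum for about 12 hours, and then kept for 4 hours with TGF-β1 at 10 ng/ml or left untreated. The 4 groups, each of 4 libraries, were thus KO TGF-β1, KO untreated, fl/fl TGF-β1 and fl/fl untreated. The labels do not say whether libraries of a group came from separate mice, so p-values measure only the spread between these libraries.

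As background, carbohydrate sulfotransferases of the Golgi move sulfate from an activated donor onto defined positions of sugar chains. Chst11 and Chst12 sulfate the 4 position of N-acetylgalactosamine in chondroitin, Chst14 does so in dermatan, Chst7 sulfates a 6 position in chondroitin, and Chst15 adds a second sulfate to make the highly charged chondroitin sulfate E. Chst1 sulfates galactose in keratan sulfate, and Chst2 sulfates N-acetylglucosamine, a step in making ligands for selectins and Siglecs. The B3gnt enzymes extend chains with N-acetylglucosamine: B3gnt2 and B3gnt8 build poly-N-acetyllactosamine on glycoproteins, and B3gnt5 starts the lacto-series glycolipids by making lactotriaosylceramide. In macrophages, chondroitin sulfate chains are carried by serglycin and versican, and sulfated lactosamine chains occur on CD44 and lysosomal membrane proteins.

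The sequences upstream of the 5 genes with the largest fold changes with TGF-β1 among the 8 tested are shown because a Smad protein was deleted in this study. They are the 250 bases before the RefSeq start on the gene's strand (GRCm38.p6), and capitals mark the Smad-binding element CAGAC on either strand, its reverse complement being GTCTG.
Chst1, chr2:92600867-92601116, plus strand: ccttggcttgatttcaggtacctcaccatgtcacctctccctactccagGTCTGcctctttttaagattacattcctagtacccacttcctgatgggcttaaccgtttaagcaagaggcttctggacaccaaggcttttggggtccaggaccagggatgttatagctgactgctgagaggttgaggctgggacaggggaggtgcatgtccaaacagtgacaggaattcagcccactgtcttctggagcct
B3gnt5, chr16:19759984-19760233, plus strand: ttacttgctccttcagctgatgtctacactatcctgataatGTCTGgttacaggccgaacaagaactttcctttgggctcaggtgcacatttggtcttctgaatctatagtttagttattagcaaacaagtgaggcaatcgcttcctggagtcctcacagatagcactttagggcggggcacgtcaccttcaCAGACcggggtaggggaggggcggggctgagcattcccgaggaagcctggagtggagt
Chst7, chrX:20059320-20059569, plus strand: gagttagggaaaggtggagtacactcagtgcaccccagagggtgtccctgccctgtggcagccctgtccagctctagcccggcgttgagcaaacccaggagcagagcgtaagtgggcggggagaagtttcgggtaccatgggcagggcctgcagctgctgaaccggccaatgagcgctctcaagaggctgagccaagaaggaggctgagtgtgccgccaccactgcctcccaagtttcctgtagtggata
Chst15, chr7:132317229-132317478, minus strand: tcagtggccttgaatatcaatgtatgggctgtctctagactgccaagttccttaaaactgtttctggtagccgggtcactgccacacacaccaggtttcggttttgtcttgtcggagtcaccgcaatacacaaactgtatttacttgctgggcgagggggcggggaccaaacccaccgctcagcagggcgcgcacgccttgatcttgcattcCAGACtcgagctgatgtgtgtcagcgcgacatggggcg
B3gnt8, chr7:25627374-25627623, plus strand: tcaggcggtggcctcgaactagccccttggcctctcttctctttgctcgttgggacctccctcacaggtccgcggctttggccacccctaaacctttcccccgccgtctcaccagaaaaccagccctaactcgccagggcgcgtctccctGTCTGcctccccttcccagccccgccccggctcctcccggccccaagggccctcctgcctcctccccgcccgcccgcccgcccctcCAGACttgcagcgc
CAGAC occurred once upstream of Chst1 (201 bases before the start) and of Chst15 (38 bases before it), at 2 places each upstream of B3gnt5 (209 and 58 bases) and B3gnt8 (100 and 14 bases), and not upstream of Chst7. It also occurred in the windows of Chst2, Chst12 and Chst14, and 42.2% of all 32817 RefSeq windows of the same length held it. The palindrome GTCTAGAC was in 0.168% of the windows and the AP-1 site TGANTCA in 6.75%, and neither was in any of the 10. The GC-rich Smad site GGCGCC, in 9.59% of windows, was in those of Chst2, Chst11 and B3gnt2 at 1 place each. All motifs were searched on both strands, and a match is a description of letters only. The RefSeq start of B3gnt2 lies 1226 bases inside the gene as the count table bounds it, and that of Chst2 lies 548 bases outside. The Chst1 window starts from a RefSeq start that lies 1410 bases inside the gene so bounded. Its share of G and C was 51.6%, and that of B3gnt5 was 51.2%, against 70% for B3gnt8 and a median of 52.4% over all windows.

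Total counts ran from 16865591 to 23741079 per library, and 13080 genes passed the filter on low counts. The library labelled KO untreated replicate 1 went against its label: Pmepa1, a known TGF-β1 target, had 320 CPM. It had 292 to 343 CPM in KO TGF-β1 libraries and 1.70 to 2.73 CPM in the remaining KO untreated ones. Skil, at 655 CPM, also lay within its KO TGF-β1 range of 546 to 742 CPM. Other genes lay between the treated and the remaining untreated KO libraries. Ednrb was at 16.6 CPM, against 6.02 to 14.4 CPM treated and 132 to 274 CPM untreated. Rnd3 was at 5.68 CPM, against 1.91 to 4.20 CPM and 33.5 to 41.8 CPM. Smad7, at 5.87 CPM, lay between them too. CPM are counts scaled to a fixed total, corrected by edgeR's trimmed mean of M-values. Fold changes and counts of calls that use KO untreated libraries are therefore given with and without KO untreated replicate 1. Smad7 itself, an inhibitory Smad induced by TGF-β, was at 10.3 to 19.7 CPM in KO TGF-β1 and 1.28 to 5.87 CPM in KO untreated libraries (1.28 to 2.00 CPM without replicate 1), against 37.3 to 58.3 CPM in fl/fl TGF-β1 and 3.89 to 6.03 CPM in fl/fl untreated libraries. Which exons are floxed is not given in the sources used here, so reads that remain in KO do not measure how much of the gene was deleted. All 8 macrophage markers were detected, with summed levels of 17860 to 20240 CPM in KO TGF-β1, 17330 to 25180 CPM in KO untreated, 17010 to 21020 CPM in fl/fl TGF-β1 and 21140 to 23260 CPM in fl/fl untreated libraries. Of the marker lists of other cells, the B cell list, which was nearly all Ighm, moved with TGF-β1. Its 5 markers, none at 0 throughout, summed to 73.1 to 110 CPM in KO TGF-β1 and 115 to 193 CPM in KO untreated, and to 90.3 to 118 CPM in fl/fl TGF-β1 and 163 to 215 CPM in fl/fl untreated libraries. The lowest KO untreated sum was that of replicate 1. The part of B cell RNA in the results below was not tested.

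The 10 genes spanned more than 3 orders of magnitude in FPKM, a level scaled to gene length that allows genes to be compared. B3gnt8 was the highest in every group, at 68.9 ± 13.2 FPKM in KO TGF-β1, 41.7 ± 13.2 in KO untreated (35.1 ± 2.24 without replicate 1, n = 3), 68.4 ± 15.9 in fl/fl TGF-β1 and 32.8 ± 4.33 in fl/fl untreated libraries (SD, n = 4 each). Chst12 followed, at group means of 18.9 to 23.6 FPKM, and then Chst14, at 9.60 to 11.2 FPKM. These 3 genes did not overlap one another in any group. Chst2 was the lowest in every group, with means of 0.00490 to 0.0424 FPKM.

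**Figure D1:**
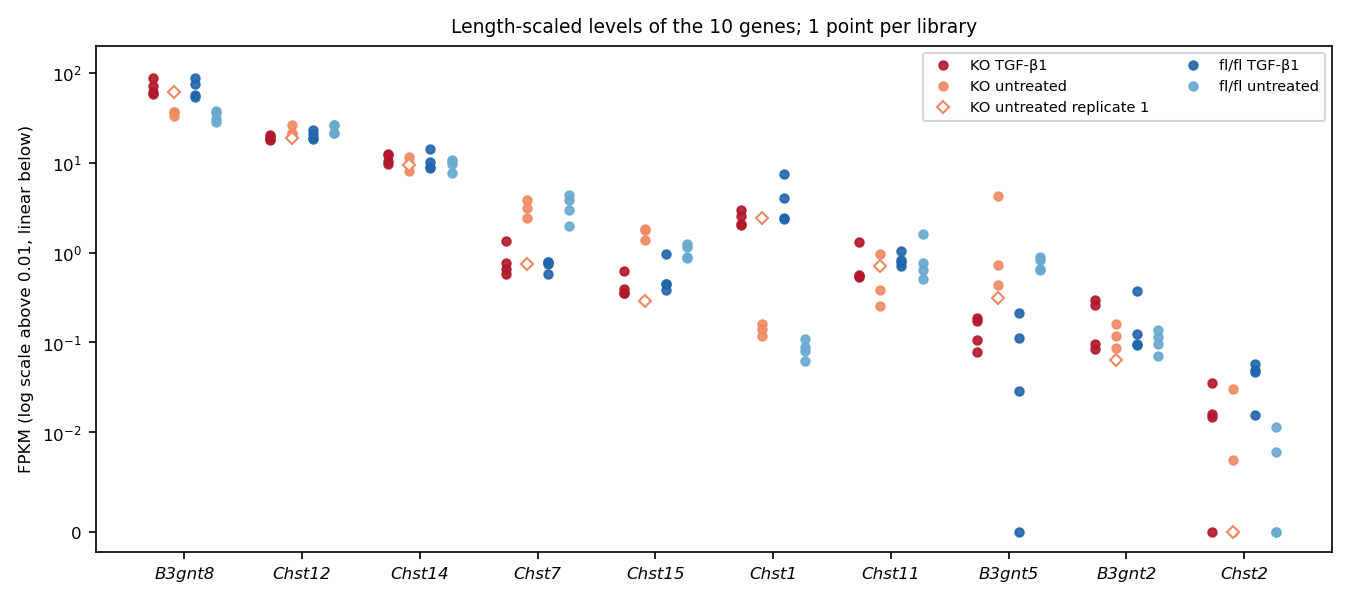
FPKM of the 10 genes on a log axis that is linear below 0.01, with 1 point per library, coloured by group, and the KO untreated replicate 1 library as an open diamond. B3gnt8, Chst12 and Chst14 form the top 3 in each group, and Chst1 and B3gnt5 change places in the order between TGF-β1 and untreated libraries.

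The middle of the order differed with treatment. Chst1 ranked 4th in TGF-β1 libraries, at 2.42 ± 0.450 FPKM in KO and 4.08 ± 2.40 FPKM in fl/fl (SD, n = 4 each), above every gene ranked below it without overlap. In untreated libraries it averaged 0.703 ± 1.13 FPKM in KO, or 0.139 ± 0.0208 without replicate 1 (n = 3), and 0.0853 ± 0.0189 FPKM in fl/fl, ranking 9th there. Chst7 held the 4th place in untreated libraries, at 2.54 ± 1.33 FPKM in KO (3.13 ± 0.739 without replicate 1, n = 3) and 3.29 ± 1.04 FPKM in fl/fl. In fl/fl it did not overlap the next gene. In KO its range, 0.755 to 3.87 FPKM, overlapped that of the next gene, B3gnt5, at 0.312 to 4.28 FPKM. B3gnt5, Chst15 and Chst1 overlapped their next genes there too. In fl/fl TGF-β1 libraries Chst11, Chst7 and Chst15 overlapped with their neighbours, at means of 0.564 to 0.844 FPKM. In fl/fl untreated libraries Chst15, Chst11 and B3gnt5 did so, at 0.752 to 1.04 FPKM. Among 14 other family genes, B3gnt3 stood near Chst12, at 26.2 FPKM in KO TGF-β1, 27.1 in KO untreated, 27.0 in fl/fl TGF-β1 and 31.2 in fl/fl untreated libraries, and Chst4, Chst5, Chst13 and B3gnt4 had no count in any library.

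TGF-β1 was accompanied by a rise of B3gnt8 and a fall of Chst7 in both genotypes, while Chst12, which makes chondroitin 4-sulfate, and Chst14, which makes its dermatan counterpart, were not called. Chst15 fell in KO, and in fl/fl its fall passed the test only in fits that left out KO untreated replicate 1, a library that enters the shared estimate of the spread. Chst1 was many times higher and B3gnt5 many times lower with TGF-β1, the pattern for which they were picked. In bulk RNA, fewer cells of a type and less RNA per cell cannot be told apart. Of the 8 other genes, which were listed with earlier results of these data known, 6 passed the filter. By edgeR's quasi-likelihood test (adjusted p below 0.05 over all genes tested), 2 of these 6 were called in fl/fl, against 15.5% of all genes tested. Of the 2, 1 was higher (7.87% of all genes) and 1 lower (7.61% of all genes). In KO, 3 of the 6 were called, against 5.17% of all genes, 1 higher (2.19% of all genes) and 2 lower (2.97% of all genes). Without KO untreated replicate 1 there were 3 calls in each genotype, 1 higher and 2 lower. The shares of all genes were then 15.2% in KO (8.33% higher and 6.88% lower) and 18.1% in fl/fl (8.91% higher and 9.23% lower). With so few genes, these counts say nothing particular about the family.

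**Figure D2:**
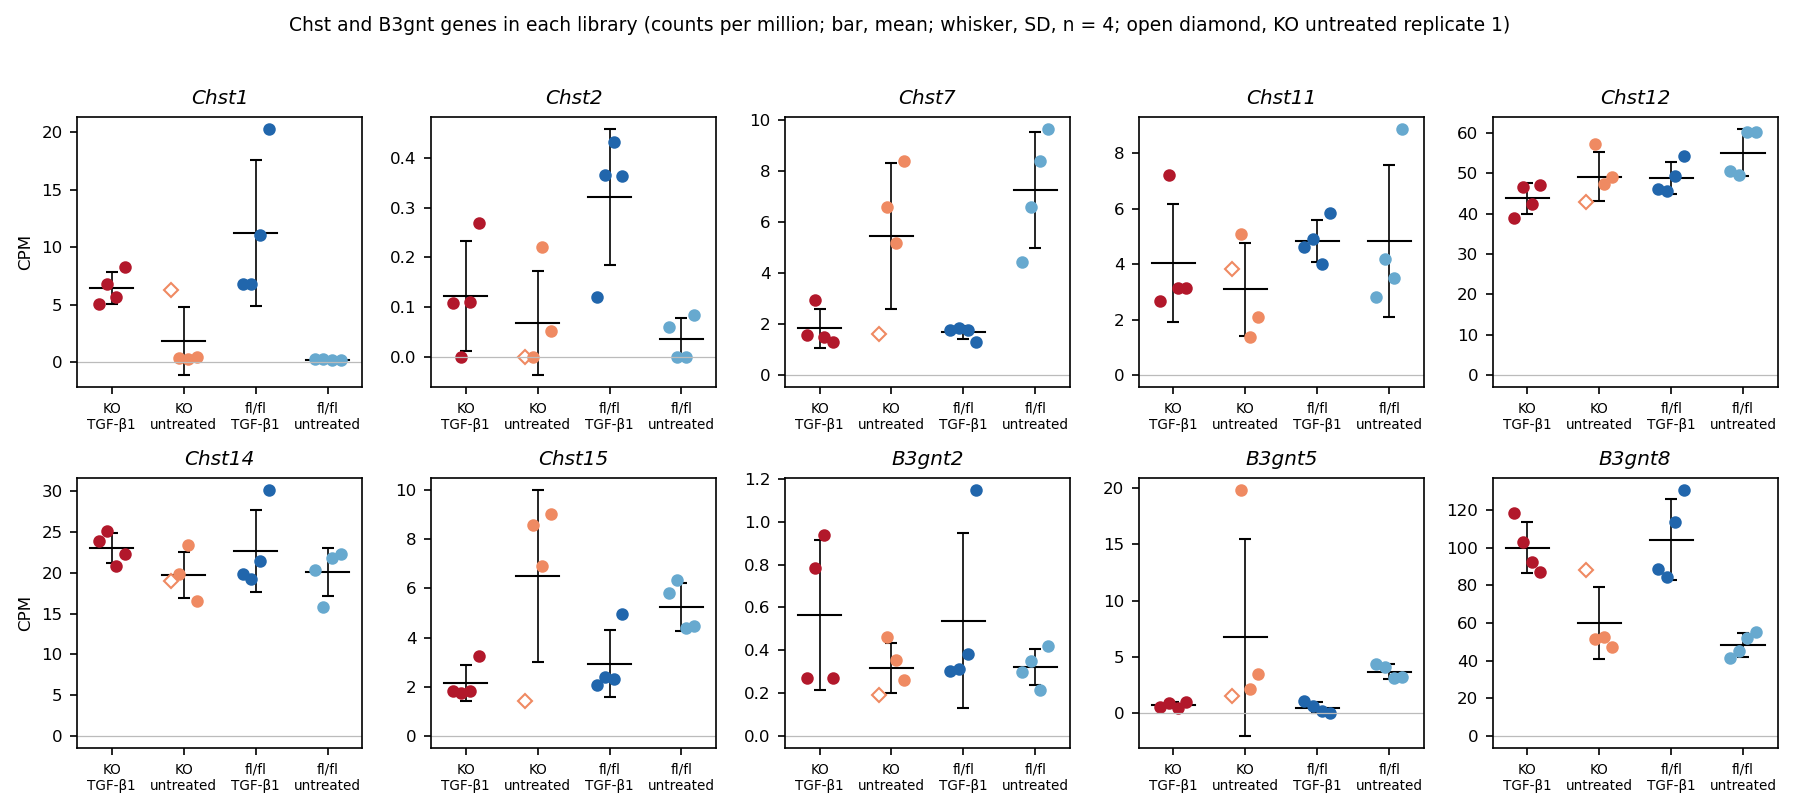
CPM of each gene in each library, on linear axes drawn with 0 in view, with the mean (bar) and SD (whisker, n = 4) of each group and KO untreated replicate 1 as an open diamond. That diamond lies with the KO TGF-β1 points for Chst1, Chst7 and B3gnt8, and B3gnt5 has 1 high library in KO untreated.

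Chst1 (ENSMUSG00000027221, chromosome 2, 92599707 to 92615250, plus strand, mm10), the keratan sulfate galactose 6-O-sulfotransferase, has its reading frame in 1 exon. It was at 5.06, 6.77, 5.69 and 8.28 CPM in KO TGF-β1 libraries 1 to 4, against 6.26, 0.360, 0.310 and 0.420 CPM in KO untreated libraries. The fl/fl libraries had 6.80, 6.79, 11.1 and 20.3 CPM with TGF-β1, against 0.239, 0.291, 0.217 and 0.168 CPM untreated. The fl/fl groups stood far apart, and in KO only replicate 1 of the untreated libraries lay among the treated ones. On the log2 scale the fold change was 1.80 ± 0.72 (SE) in KO, or 4.16 ± 0.43 without KO untreated replicate 1, and 5.61 ± 0.93 in fl/fl. These rest on few untreated reads, with 7 to 8 counts per library in KO untreated libraries 2 to 4 and 4 to 5 in fl/fl untreated libraries.

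Chst2 (ENSMUSG00000033350, chromosome 9, 95399292 to 95406722, minus strand), the N-acetylglucosamine 6-O-sulfotransferase, was too low to test. It had 2, 0, 2 and 6 counts in KO TGF-β1 libraries, against 0, 0, 5 and 1 counts in KO untreated libraries. The fl/fl libraries had 2, 7, 9 and 7 counts with TGF-β1, against 1, 0, 0 and 2 counts untreated. As CPM, the fl/fl groups did not overlap, while those of KO did, and a difference at so few counts is not resolved at this depth.

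Chst7 (ENSMUSG00000037347, chromosome X, 20059560 to 20097521, plus strand), a chondroitin 6-O-sulfotransferase, fell with TGF-β1 in both genotypes. It was at 1.56, 2.94, 1.49 and 1.30 CPM in KO TGF-β1 libraries, against 1.62, 6.58, 5.18 and 8.40 CPM in KO untreated libraries. Among fl/fl libraries it was at 1.76, 1.83, 1.78 and 1.30 CPM with TGF-β1, against 4.43, 6.58, 8.38 and 9.63 CPM untreated. The fl/fl groups were fully separated, and the KO groups overlapped through untreated replicate 1 alone. Its log2 fold change was -1.57 ± 0.39 in KO (edgeR adjusted p = 0.0314), or -1.85 ± 0.31 without that library (adjusted p = 0.000242). The fl/fl value was -2.12 ± 0.40 (edgeR adjusted p = 0.002), a level 4.35-fold lower.

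Chst15 (ENSMUSG00000030930, chromosome 7, 132235780 to 132317228, minus strand), which makes chondroitin sulfate E, has a coding sequence of 7 exons. It was at 1.83, 1.77, 1.82 and 3.27 CPM in KO TGF-β1 libraries, against 1.43, 8.58, 6.91 and 9.03 CPM in KO untreated libraries. Libraries of fl/fl macrophages had 2.06, 2.40, 2.31 and 4.95 CPM with TGF-β1, against 5.80, 6.35, 4.39 and 4.46 CPM untreated. In fl/fl the groups overlapped through TGF-β1 replicate 4, and in KO through untreated replicate 1, which was the lowest of all 8 KO libraries. In KO the log2 fold change was -1.57 ± 0.43 (edgeR adjusted p = 0.0426), or -1.87 ± 0.30 without replicate 1 (adjusted p = 0.000162). In fl/fl it was -0.83 ± 0.42 (edgeR adjusted p = 0.213), and the same difference, -0.84 ± 0.28, passed at an adjusted p of 0.0455 when the KO library was left out. Its exons overlap 1206 bases of the antisense gene Gm10584. The strand setting of the counting is not given in the sources used here, so reads of the 2 genes cannot be told apart.

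Chst11 (ENSMUSG00000034612, chromosome 10, 82985498 to 83195900, plus strand), a chondroitin 4-O-sulfotransferase with 3 coding exons, varied widely within groups. It was at 2.69, 7.21, 3.15 and 3.13 CPM in KO TGF-β1 libraries, against 3.82, 5.09, 1.37 and 2.10 CPM in KO untreated libraries. Among fl/fl libraries it was at 4.61, 4.91, 3.99 and 5.84 CPM with TGF-β1, against 2.81, 4.19, 3.52 and 8.88 CPM untreated. Treated and untreated libraries overlapped in both genotypes. With TGF-β1 the log2 fold change was 0.39 ± 0.42 in KO (edgeR adjusted p = 0.753), or 0.55 ± 0.45 without KO untreated replicate 1 (adjusted p = 0.553), and -0.01 ± 0.41 in fl/fl (adjusted p = 0.99), and the fl/fl value is near 0 on either side of it depending on the fit.

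Chst12 (ENSMUSG00000036599, chromosome 5, 140505550 to 140525724, plus strand), had a higher FPKM than the other chondroitin 4-O-sulfotransferase, Chst11, in every group. It was at 38.9, 46.6, 42.5 and 47.1 CPM in KO TGF-β1 libraries, against 42.8, 57.4, 47.5 and 49.0 CPM in KO untreated libraries. The fl/fl levels were 46.2, 45.6, 49.3 and 54.2 CPM with TGF-β1, against 50.7, 49.6, 60.2 and 60.1 CPM untreated. Groups overlapped in both genotypes, although in KO they separated without untreated replicate 1. The log2 fold change was -0.17 ± 0.11 in KO (edgeR adjusted p = 0.498), or -0.20 ± 0.11 without that library (adjusted p = 0.29), and -0.18 ± 0.11 in fl/fl (adjusted p = 0.323).

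Chst14 (ENSMUSG00000074916, chromosome 2, 118926496 to 118928585, plus strand), the dermatan 4-O-sulfotransferase, was at 23.9, 25.2, 20.8 and 22.3 CPM in KO TGF-β1 libraries, against 19.0, 19.9, 23.5 and 16.6 CPM in KO untreated libraries. The fl/fl levels were 19.9, 19.3, 21.5 and 30.1 CPM with TGF-β1, against 20.4, 15.8, 21.8 and 22.3 CPM untreated. The groups overlapped in both genotypes. Its log2 fold change was 0.22 ± 0.15 in KO (edgeR adjusted p = 0.533), or 0.23 ± 0.17 without KO untreated replicate 1 (adjusted p = 0.47), and 0.18 ± 0.15 in fl/fl (adjusted p = 0.51).

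B3gnt8 (ENSMUSG00000059479, chromosome 7, 25627624 to 25629490, plus strand), which extends poly-N-acetyllactosamine on N-glycans, rose with TGF-β1 in both genotypes. It was at 118, 103, 92.2 and 87.1 CPM in KO TGF-β1 libraries, against 88.2, 51.5, 52.3 and 47.3 CPM in KO untreated libraries. Libraries of fl/fl macrophages had 88.9, 84.4, 114 and 131 CPM with TGF-β1, against 41.6, 44.9, 51.9 and 55.0 CPM untreated. Treated libraries were higher than untreated ones without overlap in fl/fl, and in KO all but untreated replicate 1 were so separated. The log2 fold change was 0.74 ± 0.19 in KO (edgeR adjusted p = 0.0312), or 1.02 ± 0.15 without that library (adjusted p = 9.64e-05). The fl/fl value was 1.11 ± 0.19 (edgeR adjusted p = 0.00109), a level 2.16-fold higher.

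B3gnt2 (ENSMUSG00000051650, chromosome 11, 22834747 to 22860961, minus strand), the partner enzyme of B3gnt8 in making polylactosamine, was too low to test. It had 5, 16, 17 and 6 counts in KO TGF-β1 libraries, against 4, 9, 8 and 5 counts in KO untreated libraries. Among fl/fl libraries it had 5, 6, 8 and 22 counts with TGF-β1, against 5, 6, 5 and 10 counts untreated. The groups overlapped in both genotypes. Its exons overlap those of Gm28048 on the same strand and of 9130230N09Rik on the other, so its low count is uncertain.

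B3gnt5 (ENSMUSG00000022686, chromosome 16, 19760208 to 19772753, plus strand), the lactotriaosylceramide synthase, was low with TGF-β1 in both genotypes. It was at 0.484, 0.834, 0.387 and 0.940 CPM in KO TGF-β1 libraries, against 1.48, 19.8, 2.08 and 3.47 CPM in KO untreated libraries. The fl/fl libraries had 1.09, 0.575, 0.144 and 0 CPM with TGF-β1, against 4.37, 4.08, 3.08 and 3.16 CPM untreated. Treated and untreated libraries did not overlap in either genotype, and KO untreated replicate 2, with 386 counts, stood far above every other library. The library at 0 allows up to 3 counts. Its log2 fold change was -3.31 ± 0.82 in KO and -3.05 ± 0.86 in fl/fl. Replicate 2 sets the KO value: without it the log2 fold change was -1.78, while without KO untreated replicate 1 it was -3.61 ± 0.73.

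**Figure D3:**
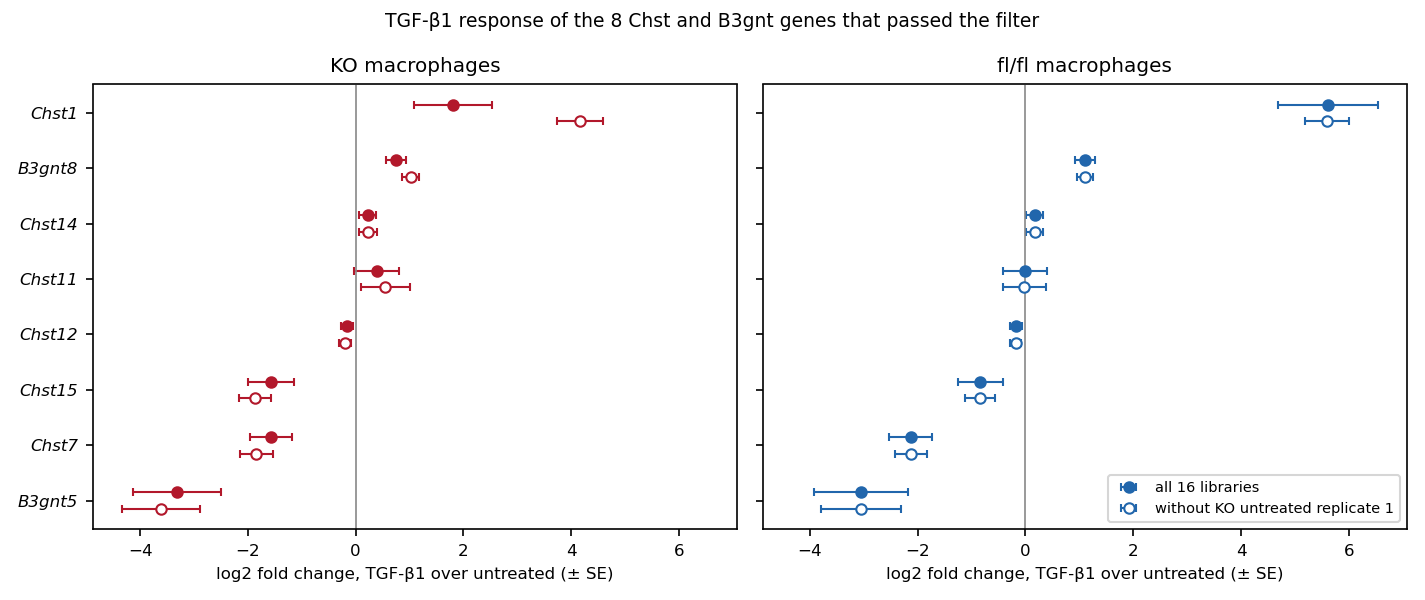
Log2 fold change (± SE) of TGF-β1 over untreated in KO and in fl/fl macrophages for the 8 genes that passed the filter, with all 16 libraries (filled) and without KO untreated replicate 1 (open). Chst1 in KO is at 4.16 without that library and at 1.80 with it. Each fl/fl estimate stays within its SE, as the library left out is in neither fl/fl group.

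The calls in KO rest on the spread shared by the 4 groups and on single libraries. Fitted to the 8 KO libraries alone, edgeR called 0 of the 6 family genes and 0 of all genes, although Chst7, Chst15 and B3gnt8 were 3 of 1916 genes at an unadjusted p below 0.05. Over the 16 fits that left out 1 library in turn, between 0 and 3 of the 6 were called in KO and between 2 and 3 in fl/fl. The count in KO was 0 without KO TGF-β1 replicate 1, 3 or 4 and without KO untreated replicate 2, 3 or 4, and 1 without KO TGF-β1 replicate 2. It was 2 without any fl/fl library other than TGF-β1 replicate 4. Without KO untreated replicate 1 it was 3, at edgeR adjusted p-values of 9.64e-05 to 0.000242. All the other fits named here, that to the KO libraries alone included, kept that library. The fit to the KO libraries alone was not run without it. The call of Chst15 in KO was thus lost in 14 of the 16 fits, at edgeR adjusted p-values of 0.0525 to 0.153, and also with no filter on low counts (adjusted p = 0.0602).

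Loss of Smad7 came with no called change in these genes in either treatment. Untreated, 0 of the 8 genes tested were called by edgeR, against 0.0459% of all genes (0.0994% without KO untreated replicate 1). DESeq2 and limma also called 0. Chst1 and B3gnt5 were chosen from these same libraries, so their values are given here as a description, although both are among the 8. Among the others, edgeR found none at an unadjusted p below 0.05 with all libraries, and Chst15 without replicate 1. For Chst1 the log2 fold change of KO over fl/fl was 3.00 ± 0.97 with replicate 1 and 0.65 ± 0.56 without it. The 3 KO untreated libraries that remain, at 0.310 to 0.420 CPM, lay above the fl/fl untreated libraries, at 0.168 to 0.291 CPM, although these levels stand for 7 to 8 and 4 to 5 counts. Chst15 was at 6.91 to 9.03 CPM in those 3 KO untreated libraries, against 4.39 to 6.35 CPM in fl/fl untreated libraries. Its groups overlapped with all libraries and parted only once replicate 1 was left out. How many of all genes part in this way was not counted. The log2 fold change of Chst15 was 0.62 ± 0.29 without replicate 1 (edgeR adjusted p = 0.412) and 0.31 ± 0.41 with it (adjusted p = 0.814). For B3gnt5, as a description, the difference took its sign from KO untreated replicate 2. It was 0.87 ± 0.72 with all libraries, 1.17 ± 0.64 without replicate 1 and -0.65 without replicate 2. For Chst12 the log2 difference was -0.17 ± 0.11, or -0.13 ± 0.11 without replicate 1, and for Chst14 it was -0.03 ± 0.15, or -0.03 ± 0.17 without it.

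With TGF-β1, edgeR, DESeq2 and limma again called 0 of the 8 genes between the genotypes, against 0.0382% of all genes by edgeR (0.0612% without KO untreated replicate 1). None of the 8 had an unadjusted p below 0.05 in edgeR with all libraries. Chst1 averaged 6.45 ± 1.41 CPM in KO TGF-β1 and 11.2 ± 6.36 CPM in fl/fl TGF-β1 libraries (SD, n = 4 each), and the groups overlapped. Its log2 fold change, as a description, was -0.80 ± 0.67, or -0.79 ± 0.29 in the fit without KO untreated replicate 1. B3gnt8 was at 100 ± 13.8 CPM in KO TGF-β1 and 104 ± 21.7 CPM in fl/fl TGF-β1 libraries, a log2 fold change of -0.06 ± 0.18 (edgeR adjusted p = 0.969).

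The difference between the TGF-β1 responses, KO minus fl/fl, was called for 0 of the 6 tested genes other than Chst1 and B3gnt5. This held for edgeR, DESeq2 and limma, and edgeR called 0% of all genes tested. None of the 6 had an unadjusted p below 0.05 in these 3 tools with all libraries. Without KO untreated replicate 1 edgeR found Chst15 at an unadjusted p below 0.05, with -1.04 ± 0.41 on the log2 scale (adjusted p = 0.982), against -0.74 ± 0.60 with all libraries (adjusted p = 0.993). For Chst1, as a description, the difference was -3.80 ± 1.18, or -1.44 ± 0.64 without that library, and for B3gnt5 it was -0.26 ± 1.22, or -0.55 ± 1.07. For B3gnt8 the difference was -0.37 ± 0.26 with all libraries and -0.09 ± 0.21 without that library.

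Other genes of these pathways were described with lists of 8 kinds. In the family itself, 8 of 14 other members were tested, and 2 rose and 2 fell in fl/fl. In KO none was called with all libraries, and 2 rose without KO untreated replicate 1. For these and the lists that follow, the shares of all genes called were 2.19% higher and 2.97% lower in KO (8.33% and 6.88% without that library), and 7.87% higher and 7.61% lower in fl/fl (8.91% and 9.23% without it). With lists of 8 to 16 genes, no count is read as particular to its list. Chst3, the main chondroitin 6-O-sulfotransferase, was at 35.6 to 48.9 CPM in KO TGF-β1 and 6.20 to 48.6 CPM in KO untreated libraries, the highest being replicate 1, and at 43.6 to 54.6 CPM in fl/fl TGF-β1 and 7.60 to 10.3 CPM in fl/fl untreated libraries. Its log2 fold change was 1.21 ± 0.46 in KO (edgeR adjusted p = 0.166), or 2.32 ± 0.19 without KO untreated replicate 1 (adjusted p = 7.4e-08). In fl/fl it was 2.52 ± 0.49 (edgeR adjusted p = 0.00327). In fl/fl Chst3 thus rose while Chst7, which sulfates the same kind of position, fell. B3gnt7, which extends keratan sulfate chains, had a log2 fold change in KO of 1.13 ± 0.49 with all libraries (edgeR adjusted p = 0.226) and 2.18 ± 0.36 without replicate 1 (adjusted p = 0.000223), and it rose by 2.58 ± 0.52 on the log2 scale in fl/fl (adjusted p = 0.00308). Chst10, which makes the HNK-1 epitope, fell by 2.39 on the log2 scale in fl/fl (edgeR adjusted p = 0.0107). It rests on few reads, with 2 to 6 counts per library in fl/fl TGF-β1 and 8 to 37 in fl/fl untreated libraries. In KO it had 4 to 6 counts with TGF-β1 and 4 to 15 untreated, and was not called. B3gnt9 fell by 1.10 in fl/fl (edgeR adjusted p = 0.0321). The median log2 fold change of the 8 was 0.07 in fl/fl, against -0.01 over all genes tested.

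**Figure D4:**
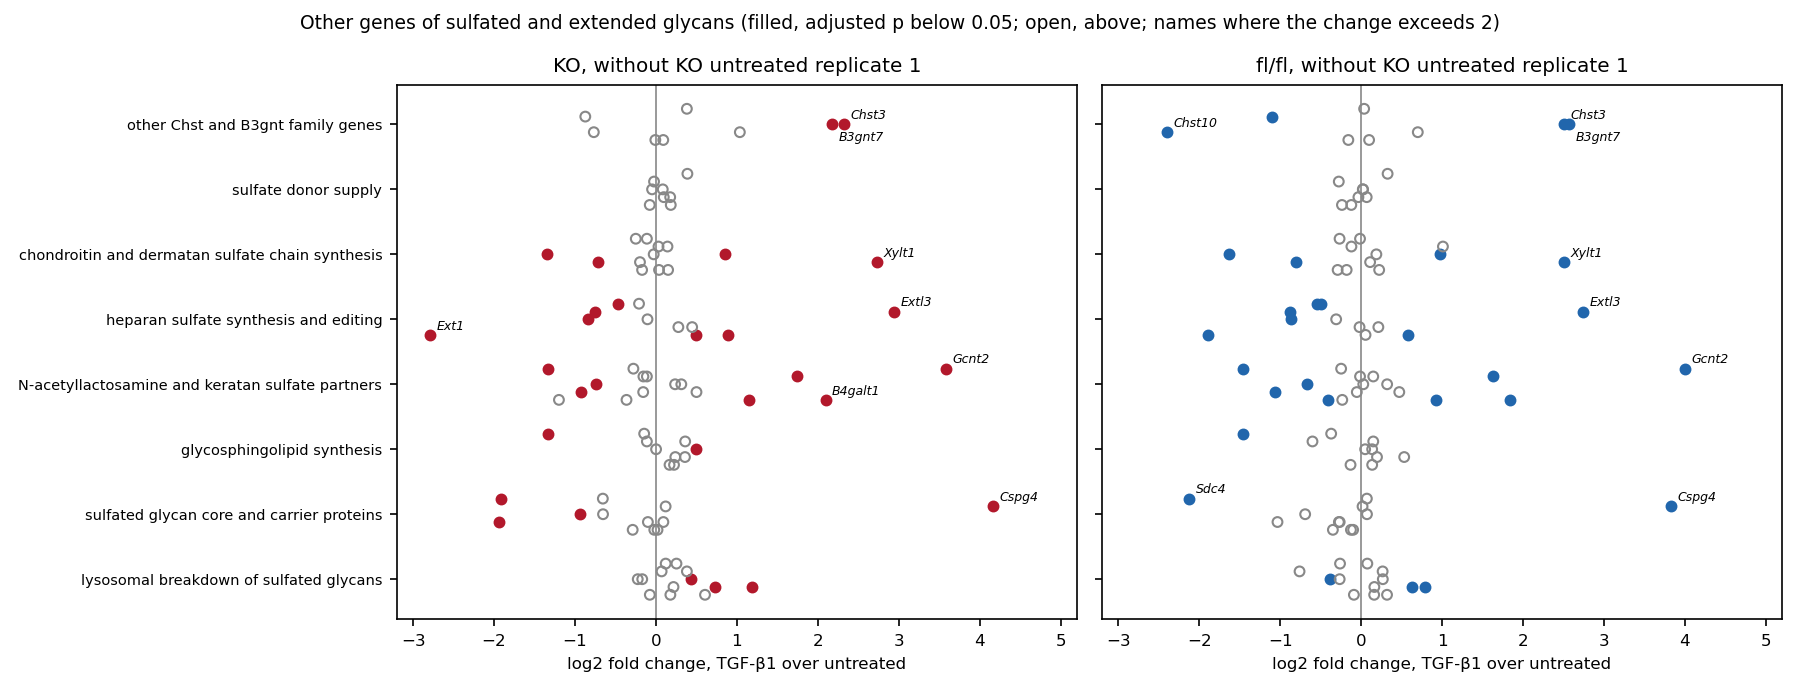
Log2 fold change of TGF-β1 over untreated for the tested genes of 8 lists in KO (left) and fl/fl (right) macrophages, both from the fit without KO untreated replicate 1, filled where the edgeR adjusted p was below 0.05. Gcnt2, Cspg4, Extl3 and Xylt1 lie far to the right in both genotypes, and no gene of the sulfate donor list is filled.

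None of the 8 genes that supply the sulfate donor was called in either genotype by edgeR, with or without KO untreated replicate 1, and the one with the lowest p in fl/fl, the sulfate transporter Slc26a2, had a log2 fold change of -0.23 ± 0.14 (adjusted p = 0.301). At an unadjusted p below 0.05 edgeR and DESeq2 found 0 of the 8 in either genotype, and limma found 1 in fl/fl and called none. Of all 13080 genes tested, edgeR with all libraries found 2311 in KO and 3584 in fl/fl at that threshold. Of 13 tested genes of chondroitin and dermatan sulfate chain synthesis, 2 rose and 2 fell in fl/fl, against 7.87% and 7.61% of all genes. The initiating xylosyltransferase Xylt1 rose by 2.52 ± 0.52 on the log2 scale (edgeR adjusted p = 0.00452) and the linker enzyme B4galt7 by 0.98 ± 0.17 (adjusted p = 0.0012), while Dse, the dermatan sulfate epimerase, fell by 1.63 (adjusted p = 0.000645) and Csgalnact2, which starts the chondroitin chain, fell by 0.80 (adjusted p = 0.00126). In KO, 2 of these genes fell and none rose with all libraries, and 2 rose and 2 fell without KO untreated replicate 1. Dse was at 94.4 to 105 CPM in KO TGF-β1 and 104 to 303 CPM in KO untreated libraries (171 to 303 CPM without replicate 1), against 88.9 to 103 CPM in fl/fl TGF-β1 and 282 to 313 CPM in fl/fl untreated libraries. The median log2 fold change was -0.06 in KO, against -0.03 over all genes there (-0.03 against -0.01 without that library), and -0.01 in fl/fl.

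Of 11 tested genes of heparan sulfate synthesis, 1 rose and 5 fell in fl/fl, against 7.87% and 7.61% of all genes, with a median log2 fold change of -0.30. Without KO untreated replicate 1, 2 rose and 5 fell there. Extl3, which starts the heparan chain, rose by 2.75 ± 0.55 on the log2 scale (edgeR adjusted p = 0.00393), while the 6-O-sulfotransferase Hs6st1 fell by 0.86 (adjusted p = 0.00109) and the epimerase Glce by 0.54 (adjusted p = 0.00328). In KO, 3 fell and none rose with all libraries, and 3 rose and 4 fell without KO untreated replicate 1. Of 16 tested partners of lactosamine and keratan sulfate synthesis, 4 rose and 2 fell in fl/fl, and 4 rose and 4 fell without KO untreated replicate 1. The branching enzymes Gcnt2 and Gcnt1 rose by 4.00 ± 0.66 on the log2 scale (edgeR adjusted p = 0.00119) and 1.63 ± 0.34 (adjusted p = 0.00435), while B4galt6, also a lactosylceramide synthase, fell by 1.45 (adjusted p = 0.000925) and the sialyltransferase St3gal1 by 1.05 (adjusted p = 0.00109). The change of Gcnt2 rests on low untreated levels, with 0.304 to 1.17 CPM in fl/fl untreated and 9.17 to 13.1 CPM in fl/fl TGF-β1 libraries. Gcnt2 was at 7.31 to 11.3 CPM in KO TGF-β1 and 0.411 to 6.35 CPM in KO untreated libraries (0.411 to 1.37 CPM without replicate 1). In KO, 2 of the partners fell and none rose with all libraries, and 4 rose and 3 fell without KO untreated replicate 1.

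In the glycosphingolipid list, on which B3gnt5 acts downstream of lactosylceramide, B4galt6 was the only one of 10 tested genes called in fl/fl, and 1 rose and 1 fell in KO, with or without KO untreated replicate 1. Of 12 tested core and carrier proteins, 1 rose and 1 fell in fl/fl: the chondroitin sulfate proteoglycan Cspg4 rose by 3.84 ± 0.81 on the log2 scale (edgeR adjusted p = 0.00504) and the heparan sulfate proteoglycan Sdc4 fell by 2.12 (adjusted p = 0.000722). In KO, Sdc4 was at 48.2 to 66.1 CPM with TGF-β1, against 59.6 to 259 CPM in untreated libraries (212 to 259 CPM without replicate 1), and it was the 1 gene called with all libraries. Without replicate 1, 1 rose and 3 fell in KO. Of 13 lysosomal enzymes that break these chains down, 2 rose and 1 fell in fl/fl, with Galns higher by 0.63 ± 0.16 on the log2 scale (edgeR adjusted p = 0.0102) and Hgsnat lower by a log2 change of -0.38 ± 0.12 (adjusted p = 0.0337). In KO, 2 rose and none fell, and 3 rose without KO untreated replicate 1. No gene of the 8 lists was called by edgeR between the genotypes in either treatment, or for the difference of the responses, with or without that library, and DESeq2 and limma also called 0. Of the 89 distinct genes tested, edgeR with all libraries found 14 at an unadjusted p below 0.05 between untreated genotypes. It found 6 between treated ones and 2 for the difference of the responses. Of all 13080 genes tested, 1421, 734 and 275 passed that threshold. Without KO untreated replicate 1 the counts were 21, 9 and 1 of the 89, against 1566, 874 and 256 of all genes.

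The genes closest to Chst1 and B3gnt5 over the 16 libraries were found by the root mean square distance between log2 CPM values centred on each gene's mean, among 9972 genes. The 5 nearest to Chst1 were Cd300lf (0.538), Mmp2 (0.539), Smad6 (0.541), Usp2 (0.575) and Pald1 (0.578), against a median distance of 2.25 over all candidates. Smad6, the other inhibitory Smad, was at 62.7 to 74.0 CPM in KO TGF-β1 and 3.05 to 54.6 CPM in KO untreated (3.05 to 5.96 CPM without replicate 1), and at 57.1 to 78.8 CPM in fl/fl TGF-β1 and 1.57 to 3.52 CPM in fl/fl untreated libraries. For B3gnt5 they were Lpar1 (0.723), Cytip (0.728), Ahr (0.761), Rnd3 (0.890) and Clec4e (0.941), against a median of 1.79. Cytip, a regulator of leukocyte adhesion, shared the high KO untreated replicate 2: it was at 12.0 to 22.2 CPM in KO TGF-β1 and 34.5 to 313 CPM in KO untreated (49.8 to 313 CPM without replicate 1), and at 8.34 to 19.6 CPM in fl/fl TGF-β1 and 54.5 to 59.3 CPM in fl/fl untreated libraries. Among the 8 tested genes of the 10, Chst12 and Chst14 were the closest pair (0.264), Chst7 and Chst15 were at 0.706, and Chst1 and B3gnt5 were the farthest apart (3.86). The last distance follows from the choice of Chst1 and B3gnt5 for steep changes, which went opposite ways. Distances are not scaled to the size of a gene's changes, so genes that change little lie close. Chst12 and Chst14 changed little with TGF-β1, and in opposite directions. The libraries behind these distances share their treatment, so the distances describe the patterns and carry no test.

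**Figure D5:**
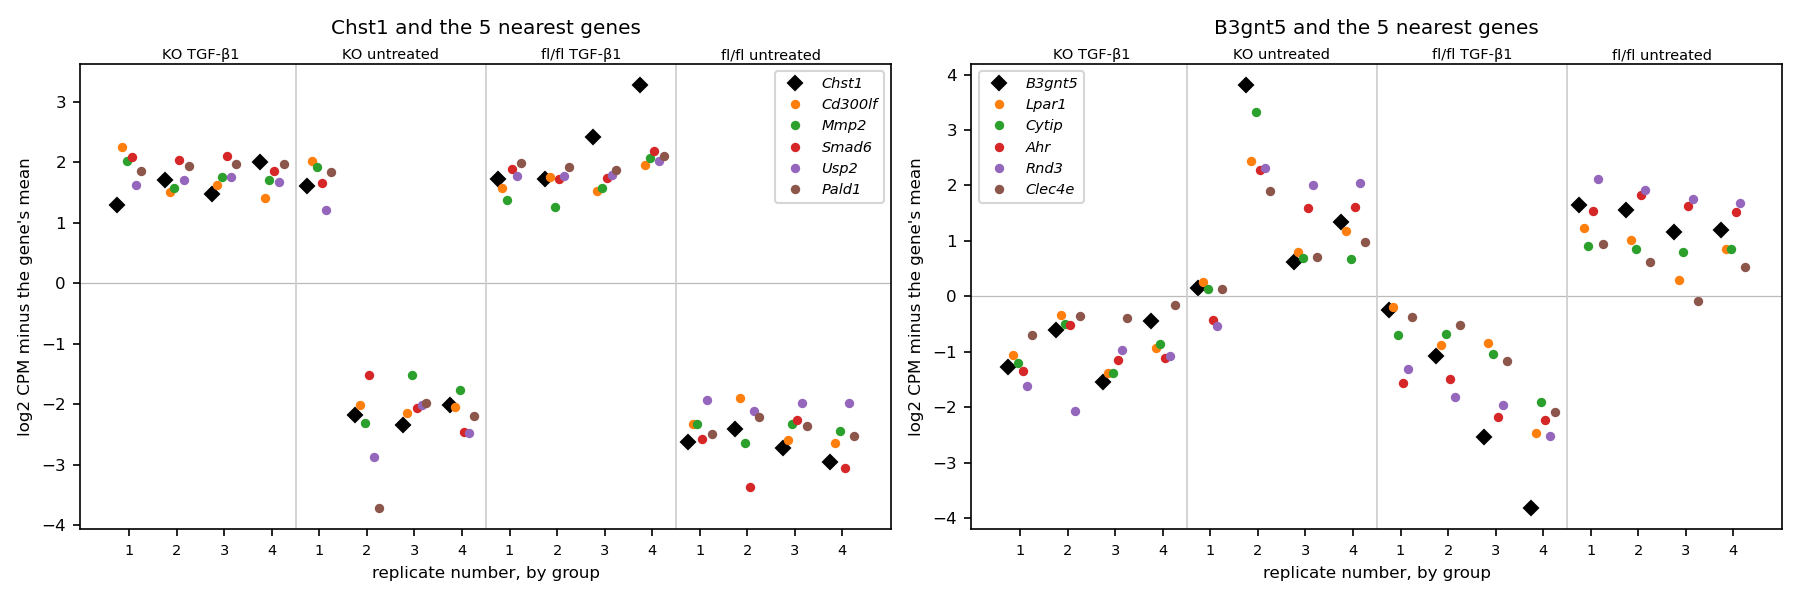
Log2 CPM minus the gene's mean over the 16 libraries, by group and replicate number, for Chst1 (left) and B3gnt5 (right) with the 5 nearest genes of each. In the left panel KO untreated replicate 1 lies with the TGF-β1 libraries, and in the right panel KO untreated replicate 2 is the highest library for B3gnt5 and for each of its 5 neighbours.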

How the data were processed

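Polyadenylated RNA of 16 libraries was read as 150 bp pairs, per the labels' protocols. The authors deposited unnormalized counts of reads per Ensembl gene, in whole numbers. The deposited FPKM table holds FPKM that the authors scaled to gene length and library total: 100% of positive values equalled the count over length and total within 0.1%. TopHat2 2.0.9, HTSeq 0.6.1 and Cufflinks 2.1.1 and the builds mm10 and GRCm38.p6 are listed in the submitters' processing notes, without roles. The counting options are not given in the sources used here.

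The members and gene lists were chosen with earlier results of these data known. TMM scaling was applied to the counts, and filterByExpr on the 4 groups kept 13080 of 35275 genes. Of the 10 genes, 8 passed. One quasi-likelihood model (edgeR 4.0.16, robust, R 4.3.3) with a mean per group was fitted to all genes, with Benjamini-Hochberg adjustment over all genes tested at 0.05. Adjusted p-values come from edgeR where no tool is named. Each SE of a log2 fold change is its absolute size over the square root of edgeR's F statistic. The code was tested on simulated counts. Named genes of a list are up to 2 rising and 2 falling with the lowest p in fl/fl, or the lowest p where none was called; 1 gene that this rule names is not reported here. Nearest genes needed an average log2 CPM of at least 1. Alternatives were DESeq2 1.42.0, limma 3.58.1 on log2(FPKM + 1), other filters, only the groups compared, a minimum 1.5-fold change, a replicate block and leaving out each library. Adgre1 and B4gat1 were matched by identifier. Promoters are from the RefSeq table of GRCm38.p6, and annotation from GENCODE.

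Groups and replicate numbers come from the sample titles. In the fl/fl TGF-β1 comparison libraries of the same number deviated together over genes, with correlations of 0.162, 0.173, 0.123 and 0.181. TGF-β1 replicate 2, however, correlated best with untreated replicate 1. In KO the correlations were 0.0754, 0.0816, 0.187 and 0.239, and TGF-β1 replicates 1 and 2 correlated best with untreated replicates 2 and 1. The numbers were therefore taken as a possible pairing only. A replicate block shared by both genotypes changed no call of the family genes in fl/fl, and neither did a block within genotype. The floor of 3 counts covers counting error only, and reads carry no molecular identifiers. Each ± is an SD between libraries or an SE from the fit, and both take in the spread between libraries.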

Additional observations from a re-analysis of the deposited data

Results flagged for a closer look

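In 9 of 40 groups of 4 libraries, 1 library stood away from the other 3 by more than Dixon's criterion for the gap over the range. Chance flags about 1 in 20 groups. Of these, 2 belong to KO untreated replicate 1: Chst1 was at 6.26 CPM there, against 0.310 to 0.420 CPM in the others, and B3gnt8 at 88.2 CPM, against 47.3 to 52.3 CPM. B3gnt5 was at 19.8 CPM in KO untreated replicate 2, against 1.48 to 3.47 CPM in the others. In KO TGF-β1 replicate 2, Chst7 was at 2.94 CPM, against 1.30 to 1.56 CPM, and Chst11 at 7.21 CPM, against 2.69 to 3.15 CPM. Chst15 was at 3.27 CPM in KO TGF-β1 replicate 4, against 1.77 to 1.83 CPM. In fl/fl TGF-β1 replicate 4, Chst15 was at 4.95 CPM, against 2.06 to 2.40 CPM, B3gnt2 at 1.15 CPM, against 0.303 to 0.385 CPM, and Chst7 was the lowest at 1.30 CPM, against 1.76 to 1.83 CPM. The cause of these deviations was not tested.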

How the results depend on the processing

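In fl/fl, 2 of 6 genes were called under every alternative with all libraries, and 2 to 3 when 1 library was left out. In KO, the 3 calls became 2 with no filter on low counts, 1 with limma on log2(FPKM + 1), 0 with only the groups compared and 0 with a minimum 1.5-fold change, and 0 to 3 when 1 library was left out. The cause was not tested. Over all genes, 676 were called in KO (93 to 1989 leaving out 1 library, 446 without a filter on low counts, 1093 with DESeq2, 0 with only the groups compared, 3 with the minimum change). In fl/fl 2025 were called, and 441 with the minimum change. Between genotypes 6 were called untreated (61 with DESeq2) and 5 with TGF-β1 (24 with DESeq2), and DESeq2 called 1 for the difference of responses. The replicate block left the 3 KO calls, and a block within genotype, chosen after seeing the data, left 2, with Chst15 at -1.40. Same-number correlations in KO were 0.0754 to 0.239, and those between genotypes were negative. Signs reversed for values that were not called. Chst11 in fl/fl was 0.000943 with DESeq2, 0.0158 with CPM above 1 in at least 4 libraries, 0.00497 with limma, 0.0313 with the replicate block, 0.109 with the block within genotype, and, without KO untreated replicate 1, in fits also chosen after seeing the data, 0.0512 with the block and 0.00185 with DESeq2. With limma, Chst14 between untreated genotypes was 0.0148 and B3gnt8 between treated ones 0.0190. The difference of responses was -0.00396 for Chst12 with the CPM filter and -0.0377 with DESeq2 without that library. For B3gnt5 it was 0.395 with the block, 0.599 with the block within genotype and 0.0341 with the block without that library. Leaving out 1 library gave -0.20 to 0.46 for Chst11 in fl/fl and -0.0253 to 0.745 in KO. Between untreated genotypes it gave -0.134 to 0.0353 for Chst14 and -0.65 to 1.17 for B3gnt5. Between treated ones it gave -0.19 to 0.27 for Chst7, -0.0485 to 0.189 for Chst14 and -0.15 to 0.0651 for B3gnt8. For the difference of responses it gave -0.0429 to 0.761 for Chst11, -0.0282 to 0.106 for Chst12, -0.0226 to 0.215 for Chst14 and -0.67 to 1.27 for B3gnt5. Chst2 and B3gnt2 had too few counts for a test.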
